A study of Mus musculus with 8 samples.

Results

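Chaperone transcripts were examined in sorted splenic myeloid cells, and the genes were those of 10 heat shock proteins, matched by symbol in the deposited table. All 10 were found among its 23084 rows. They were arranged in 4 groups by where the protein works and how its gene is switched on. The inducible group held Hspa1a, Hspa1b, Dnajb1 and Hsph1, the constitutive group Hspa8, Hsp90aa1 and Hsp90ab1, the mitochondrial group Hspd1 and Hspe1, and the endoplasmic reticulum (ER) group Hspa5. The division by induction is not strict, because Hsp90aa1 is also raised under stress. Placing it with the inducible genes was not tried. Cells were CD11b+Ly6C+ (monocytic) or CD11b+Ly6G+ (granulocytic), sorted from spleens of C57BL/6 mice aged 6 to 8 weeks. The mice were wt or LmnaMyeKO, in which Cre under the control of the LysM (Lyz2) locus deletes Lmna in myeloid cells. RNA-sequencing of both genotypes and both subsets gave 8 samples in 4 groups of 2. The paper's account of the RNA-sequencing does not say whether these mice bore tumors. The subset was read from each sample's title, because a separate label on cell markers gives CD11b+Ly6C+ for all 8. Whether the 2 samples of a group came from different animals is not stated in the labels.

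Heat shock proteins bind unfolded or newly made proteins and help them fold. HSP70 proteins bind short exposed stretches, J-domain proteins deliver the clients and start ATP hydrolysis, and HSP110 proteins exchange the nucleotide. HSP90 proteins act later, on clients that are nearly folded, and chaperonins enclose a client in a chamber. In unstressed cells heat shock factor 1 is held inactive, and after heat or other protein damage it binds heat shock elements, repeats of the unit GAA in alternating orientation, and raises the inducible genes. The ER has its own response, the unfolded protein response, which acts through a different promoter element.

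The value described is the authors' mean signal, an average over libraries of read counts divided by a size factor for each library. The lowest values of the table show what was averaged. If each library counts whole reads, the lowest values are whole-number sums of a few steps, 1 for each library. With 8 steps all of the 60 lowest recurring values were such sums, against 48 with 7. All 28 expected sums of a pair of steps were found, against 29 of 36 with 9 steps. Neither criterion is enough alone, since 9 steps also gave all 60 values and 4 to 7 steps also gave every pair sum. Some pair sums are found by construction, because the steps are derived from the lowest values. Of the numbers of steps tried, from 4 to 12, only 8 met both criteria. The mean thus covered 8 libraries, as many as the series has in both genotypes and both subsets. The size factors behind the 8 steps ran from 0.796 to 1.05 for 7 libraries and reached 1.91 in the remaining library, which cannot be named from these values. No value of a single library and no replicate spread was analysed here, so no level below carries an error and no difference between wt and LmnaMyeKO cells was tested. The targeted gene, Lmna, had a mean signal of 79.5, and an average over both genotypes cannot show its loss.

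Markers of both sorted subsets were present. Per kilobase of transcript, the 6 neutrophil markers ran from 8346 for Ly6g to 1417102 for S100a9, the highest value of any gene. The 6 monocyte markers ran from 79.4 for Ly6c1 to 17534 for Ly6c2. They include Itgam (CD11b), at 14607, which does not tell the subsets apart because both were sorted as CD11b+. Markers of other splenic cells were also present. Medians per kilobase were 2428 for 4 B-cell genes, 7529 for 4 macrophage genes and 8505 for 4 globin genes. The median of 3 T-cell genes was lower, at 302. The immediate early gene Fos, which rises within minutes of cell handling, had 6233 per kilobase, the highest of 4 such genes, and Egr1 the lowest at 193. The part of these cells and of cell handling in the chaperone levels was not tested.

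Upstream sequences were inspected first, because heat shock elements are what sets the inducible genes apart in textbook accounts. RefSeq promoter windows (GRCm38.p6, 250 bases before to 50 after each start) were found for 7 of the 10 members, with 10 windows in all. Those of Hspa8, Hsp90aa1 and Hsp90ab1 were not analysed here. The letters searched were GAANNTTC or its mirror arrangement TTCNNGAA, which are a pair of GAA units facing each other or facing apart. Either was present in windows of 5 of the 7 members (Hspa1a, Hspa1b, Hsph1, Hspd1 and Hspe1), and in windows of 17.0% of all 27025 genes with one. A run of 3 or more units was present in 3 of the 7 (Hsph1, Hspd1 and Hspe1), against 0.662% of all genes. The Hspd1 and Hspe1 matches are a single shared element, and the Hspa1a and Hspa1b windows are nearly identical. The members counted are therefore not independent of each other. The elements are printed with flanks to 30 bases, 5′ to 3′ on the strand of the gene, with the matched units in capitals.
Hspa1a: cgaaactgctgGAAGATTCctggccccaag
Hspa1b: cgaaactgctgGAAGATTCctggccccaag
Hsph1, upstream: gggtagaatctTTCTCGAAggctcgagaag
Hsph1, downstream: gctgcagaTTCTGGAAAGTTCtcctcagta
Hspe1: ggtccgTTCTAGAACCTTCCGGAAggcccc
Hspd1: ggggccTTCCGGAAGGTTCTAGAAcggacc

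The Hspa1a and Hspa1b elements (chr17:34972242-34972271 and chr17:34959324-34959353, both on the minus strand) had the same 30 letters, lay at positions -104 to -97 from their starts and overlapped no annotated exon. Over the whole window the genes were identical at 296 of 300 positions, and their starts lie 12918 bases apart. The Hspe1 and Hspd1 lines are a single element read from opposite strands (chr1:55088053-55088082). It holds 4 units in a row over 18 bases, and the genes run away from it in opposite directions. It lay at -89 to -72 from the Hspe1 start and at -144 to -127 from 1 of 2 RefSeq Hspd1 starts, which are 311 bases apart. The printed stretch overlaps an annotated Hspd1 exon. The other Hspd1 start lies on the far side of the element, so the element is upstream of only 1 of them. Hsph1 had a pair of units upstream of both of its RefSeq starts (chr5:149636351-149636380, minus strand) and 3 units just downstream of them (chr5:149636279-149636308). Both printed stretches overlap an annotated Hsph1 exon, and the gene as annotated in GENCODE begins upstream of the pair, at chr5:149636376. Neither window of Dnajb1 held a match, which says only that these letters are not in those windows.

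The window of Hspa5, which encodes the ER chaperone BiP, held no heat shock element by these letters but the ER stress response element, CCAAT and CCACG separated by 9 bases. It is shown to set the ER gene beside the others, with the element in capitals (chr2:34772020-34772049, plus strand).
Hspa5: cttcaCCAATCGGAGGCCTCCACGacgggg

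The ER stress response element was in windows of 0.137% of all genes and lay at -65 to -47 from the Hspa5 start. The printed stretch overlaps an annotated Hspa5 exon. A CCAAT box on either strand was in windows of 6 of the 7 members, all but Hspe1, and of 41.1% of all genes. Hspa5 had 4 of them, and the last lies within its ER stress response element. TATAAA was in none of the 7, against 15.7% of all genes. These matches describe letters, and no binding was measured.

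**Figure D1:**
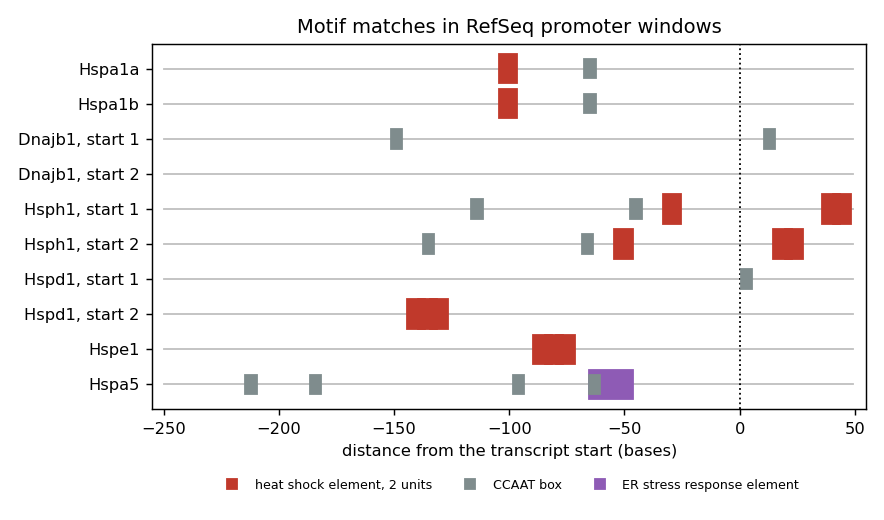
Positions of motif matches in the promoter windows of 7 chaperone genes, with the distance from the annotated start in bases on the horizontal axis and 1 line for each start. Red marks pairs of heat shock units (wider where pairs overlap), grey CCAAT boxes and purple the ER stress response element, and Hspe1 and the second Hspd1 start carry the widest red blocks.

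Chaperone transcripts differed widely in level. Reads rise with transcript length, so the mean signal was divided by the length of the transcript with the longest coding sequence, and every level below is mean signal per kilobase unless mean signal is named. The median over 14286 genes with a mean signal above 10 was 143 per kilobase. All 10 members were above it with this length, and their own median was 793. With coding length or the longest transcript 9 were above the median gene, and with the shortest 8. The lowest member, Hsph1, and the highest, Hspa8, were 56.1-fold apart. Since replicate values were not analysed, whether neighbours in the order differ beyond their spread is unknown.

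**Figure D2:**
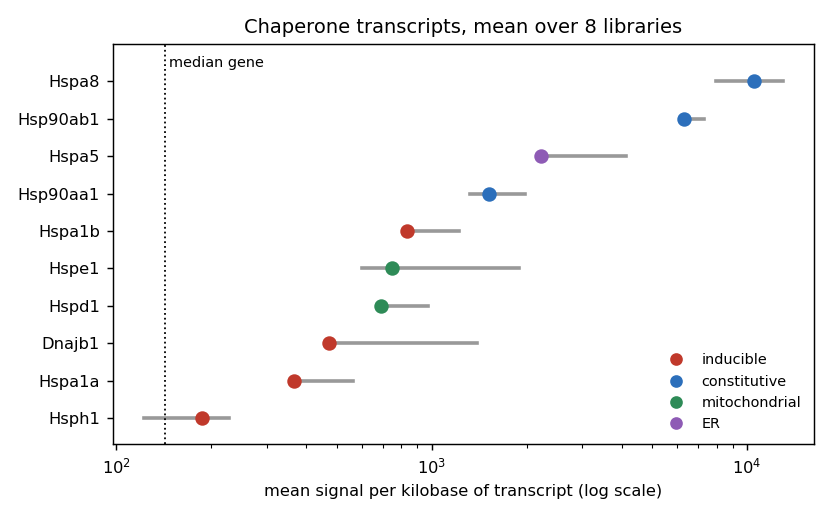
Mean signal per kilobase of transcript for the 10 chaperone genes (log axis), averaged by the authors over 8 libraries, with colours for the 4 groups. Grey bars run from the value with the longest annotated transcript to the value with coding length, not over replicates, and the dotted line is the median gene at 143.

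The constitutive cytosolic group was the highest, with a median of 6303. Hspa8 encodes HSC70, the HSP70 that most cells make at all times, which also strips clathrin from vesicles and carries proteins to the lysosome. Its mean signal was 25103 and its level 10486, at rank 154 of the 14286 genes. Hsp90ab1 encodes HSP90 beta, the steadily expressed form of cytosolic HSP90. Its mean signal was 15882 and its level 6303, at rank 288. Hsp90aa1 encodes HSP90 alpha, which cells make at a basal level and raise further under stress. Its mean signal was 4334 and its level 1520, at rank 1175. Hsp90ab1 was thus 4.15-fold above Hsp90aa1, and the alpha form made up 19.4% of the pair. The 3 constitutive genes together held 76.8% of the summed level of the 10 members. Hspa8 (chr9:40800984-40810087, plus strand), Hsp90ab1 (chr17:45567775-45573271, minus strand) and Hsp90aa1 (chr12:110690605-110702728, minus strand) have 9, 11 and 11 exons.

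The inducible group had the lowest median, 420, and the constitutive median was 15.0 times as high. That ratio was 8.21 with coding length, 9.83 between the sums of the groups and 67.9 with the shortest annotated transcript, so the constitutive group was higher in each case but by an amount that depended on the choice. Hspa1b and Hspa1a each encode the stress-inducible HSP70 from a single exon, on the minus strand at chr17:34956436-34959238 and chr17:34969190-34972156. The mean signal was 2344 for Hspa1b and 1087 for Hspa1a, which gave levels of 836 and 366. Hspa1b was therefore 2.28-fold above Hspa1a, and together they reached 1203. Dnajb1 encodes HSP40, the J-domain partner that hands clients to HSP70. It has 3 exons (chr8:83608193-83612653, plus strand), a mean signal of 1417 and a level of 473. Hsph1 encodes HSP110 (HSP105), a nucleotide exchange factor for HSP70. It has 19 exons (chr5:149614287-149636376, minus strand), a mean signal of 587 and a level of 187, which was 1.31 times the median gene. By other lengths it stood at 0.629 (coding length) to 3.87 times (shortest transcript) the median gene, so its place relative to that gene is not settled. Hspa8 was 12.5-fold above Hspa1b and 28.6-fold above Hspa1a, so the constitutive HSP70 gene had the higher level. With Hspa1a and Hspa1b counted as 1 summed member, the inducible median was 473, still below the other groups. The mitochondrial group was the lower one by the sum of its 2 members (1441 against 1862 for the 4 inducible genes), by its highest member (750 against 836) and by mean signal with no length scaling (1128 against 1252), so the order of these groups depends on the summary.

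The mitochondrial pair was close to balanced. Hspd1 encodes HSP60, the subunit of the mitochondrial folding chamber, and Hspe1 encodes HSP10, which forms its lid. Hspd1 (chr1:55077835-55088243, minus strand) had a mean signal of 1675, and Hspe1 (chr1:55088132-55091307, plus strand) had 580. On that scale the genes differ, but the Hspe1 transcript is 774 bases long and that of Hspd1 is 2423. Per kilobase, Hspe1 was at 750 and Hspd1 at 691, a ratio of 1.08. The balance depended on the length used. With coding length, which is 306 bases for Hspe1 and 1719 for Hspd1, Hspe1 was at 1896 and Hspd1 at 974, and with the longest annotated transcript Hspe1 was at 602, below Hspd1.

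Hspa5 (chr2:34771970-34777547, plus strand) encodes BiP, the HSP70 of the ER, which folds secreted and membrane proteins and holds the sensors of the unfolded protein response inactive. Its mean signal was 8132 and its level 2215, at rank 788, and only Hspa8 and Hsp90ab1 among the members were higher. Hspa5 was 5.28-fold above the inducible median, and Hspa8 was 4.73-fold above Hspa5.

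**Figure D3:**
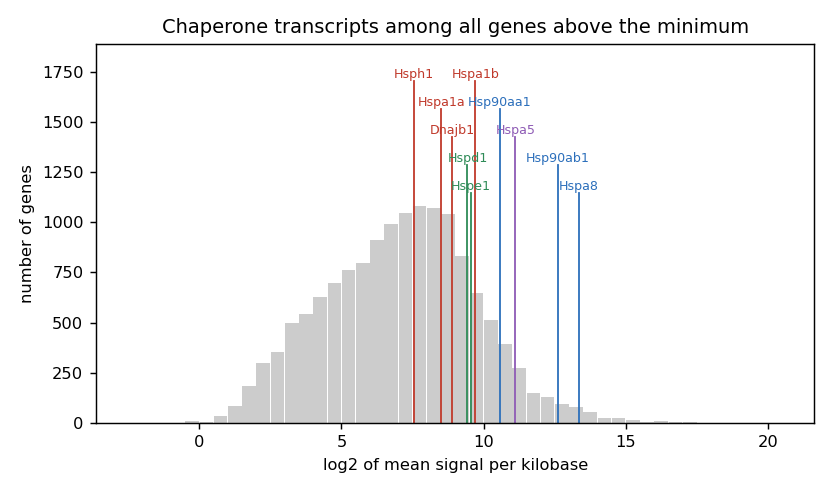
Number of genes in bins of log2 mean signal per kilobase (grey), for the 14286 genes with a mean signal above 10, with a coloured line at each chaperone gene (red inducible, blue constitutive, green mitochondrial, purple ER). Hspa8 and Hsp90ab1 lie in the upper tail, and the inducible and mitochondrial genes lie between the 55.7th percentile of Hsph1 and the 85.0th of Hspa1b.

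Several members share sequence with other genes, which limits how far their reads can be told apart. In each member's transcript, every stretch of 50 bases was looked up on both strands in the transcripts of all other genes of GENCODE M21. No stretch of Hspa5 or Hsph1 recurred elsewhere, and 0.441% of those of Dnajb1 and 4.49% of those of Hsp90ab1 did. For Hspa1a the share was 66.3% and for Hspa1b 62.3%. Hspa1b held 58.8% of the Hspa1a stretches, and Hspa1a held 62.3% of those of Hspa1b. Only 33.7% and 37.7% of their stretches were unique, so the 2.28-fold difference between them rests on the authors' estimate of how shared reads divide, which their sum does not use. Their paralog Hspa1l, which held 7.95% of the Hspa1a stretches, had a mean signal of 12.1.

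The genes Gm20481 and Gm10501, the latter annotated as antisense, also share stretches with Hspa1a and Hspa1b and had mean signals of 0.522 and 8.22. For Hspa8, Hsp90aa1, Hsp90ab1 and Hspd1, most partners holding at least 1% of the stretches were processed pseudogenes. The few shared Dnajb1 stretches recurred in 533 other genes, with no pseudogene holding 1% of its stretches. Of the Hspa8 stretches 74.8% recurred elsewhere, and the pseudogene Gm15459 held 70.0% of all Hspa8 stretches. The lincRNA Gm26825 held 69.0% and had a mean signal of 31.8. The 8 Hspa8 pseudogenes in the table had a summed mean signal of 370, or 1.47% of that of Hspa8. Of the Hsp90aa1 stretches 65.6% recurred, and its 3 pseudogenes summed to 2.30% of its mean signal. Of the Hspd1 stretches 44.8% recurred, mostly in Hspd1-ps3 (42.8%), and the 3 Hspd1 pseudogenes in the table summed to 1.24% of its mean signal. Adding all the signal of the pseudogenes that hold at least 1% of a member's stretches would thus raise no member by more than 2.30%. That signal is itself the authors' division of shared reads, and the figure does not cover reads wrongly given to a member. Of the Hspe1 stretches 44.8% recurred as well, with 35.2% in AC117239.2, a protein-coding gene model not listed in the table. Hspd1 held 8.69%, and the annotated spans of Hspe1 and Hspd1 overlap on opposite strands, both of which were searched. With stretches of 100 bases, 63.4% of those of Hspa8, 56.5% of those of Hspa1a and 22.4% of those of Hspe1 recurred. The read length is not given in the sources used here.

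**Figure D4:**
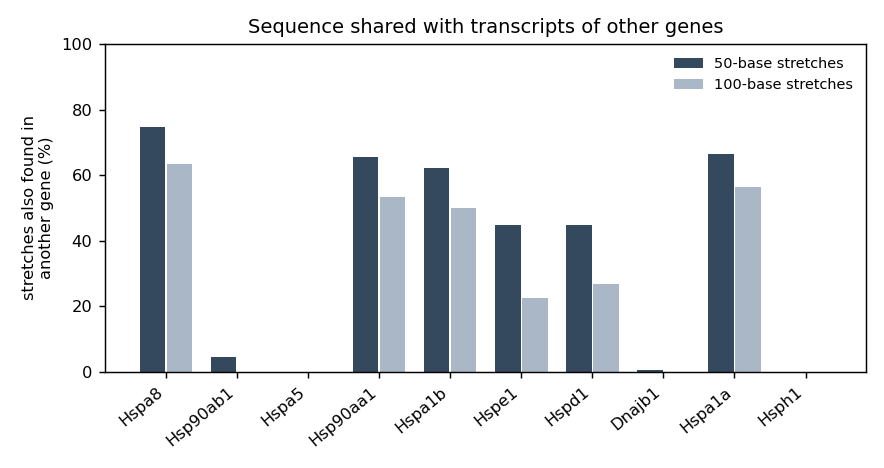
Percent of the 50-base (dark) and 100-base (light) stretches of each chaperone transcript that also occur in a transcript of another gene, with the genes ordered by level. Hspa8, Hsp90aa1, Hspa1a and Hspa1b are at or above 49.9% at both lengths, and Hspa5 and Hsph1 are at 0.

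Partners of the chaperones were described from lists of other genes of the pathway. Among factors that control the inducible genes, Hsf1, the main heat shock factor, had a level of 160, and Hsf2 had 34.1. Hsf5 was lowest at 0.303 with a mean signal of 1.26. Hsbp1, a small protein that binds heat shock factor 1, was highest of the 5 at 1012. Transcripts of the factor itself were thus 65.4-fold below Hspa8.

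All 16 cytosolic co-chaperones had a mean signal above 10, and 14 were above the median gene. Dnajc7, a J-domain protein that binds both HSP70 and HSP90, was highest at 1228, and Bag3, a stress-inducible exchange factor that routes clients to autophagy, was lowest at 54.8. Dnaja1, a J-domain partner of Hspa8, had a level of 1087, which was 2.30-fold above Dnajb1. Stip1 encodes HOP, which links HSP70 to HSP90, and was at 558, or 11.3-fold below Hsp90ab1. Ahsa1, which speeds the HSP90 ATPase, was at 1187.

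Other HSP70 and HSP110 genes had a median of 84.2 over 9 genes, with 4 above the median gene and 3 above the inducible median. Hspa4, an HSP110 that is not heat-inducible, was highest at 642, which was 3.44-fold above Hsph1, and Hspa12b was lowest at 2.12. Small heat shock proteins, which hold unfolded proteins without ATP, were low. Hspb2 was not among the rows, and of the other 4 only Hspb6 passed a mean signal of 10, at 40.9 per kilobase. Hspb1 (HSP27) had a mean signal of 7.66, Cryab 3.46 and Hspb8 0.397. The heat-inducible members had at least 187 per kilobase with the main length. Hspb1, another target of heat shock factor 1, had 8.48, and the stress-inducible Bag3 had 54.8. The cause of these differences was not tested.

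The CCT chaperonin, the cytosolic folding chamber for actin and tubulin, has 8 subunits. Their levels ran from 483 for Cct6a to 1421 for Cct5, and all 8 were above the inducible median. The 6 mitochondrial partners were below Hspd1 and Hspe1 per kilobase. Hspa9, the mitochondrial HSP70 (mortalin), was highest at 552, though its mean signal of 1684 was about that of Hspd1, and Grpel2, an exchange factor for it, was lowest at 81.6. Trap1, the mitochondrial HSP90, was at 292.

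ER chaperones were high as a set, with a median of 854 over 13 genes and 12 of them above the median gene. The CCT subunits had a similar median, 872, and all 8 were above the median gene. Calr, a calcium-binding lectin chaperone, was highest at 3349, and Sil1, the exchange factor for BiP, was lowest at 135. Hsp90b1 encodes GRP94, the HSP90 of the ER, and at 3219 it was 1.45-fold above Hspa5. Among cytosolic HSP90 genes, by contrast, the highest was 1.66-fold below Hspa8. Dnajb9, a J-domain protein raised by the unfolded protein response, was at 262.

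**Figure D5:**
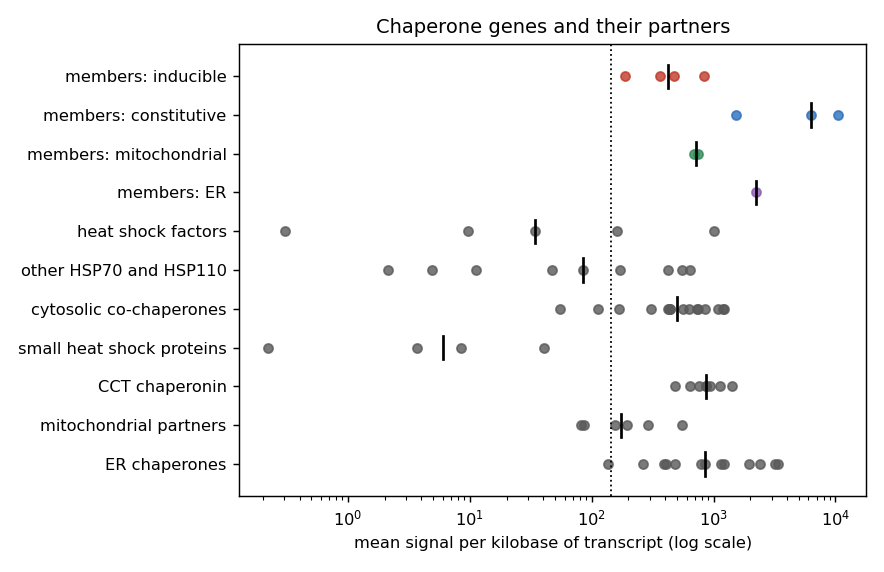
Mean signal per kilobase (log axis) of the 10 members in their 4 groups (coloured) and of the genes in 7 lists of partners (grey), each point a gene and each black bar the median of its row. The dotted line is the median gene at 143, and the 4 small heat shock protein genes in the table all lie below it.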

How the data were processed

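RNA from 8 samples of sorted splenic myeloid cells was sequenced. Per the methods and the labels, the authors removed adapters (cutadapt 1.14), mapped to mm10 (STAR 2.5.2b), estimated counts with RSEM 1.3.0 and GENCODE M12, and ran DESeq2 1.20.0. The deposited table gives for each gene a mean signal, made by the authors from counts divided by size factors. Its other 6 columns of values hold the authors' comparison of LmnaMyeKO with wt cells (fold changes, standard error, statistic and p-values) and were not used. Values per sample were not analysed here, so the count test planned for them was not run. The methods give a range of reads over all samples, but the depth of each is unknown beyond the size factors, and no test or confidence interval was computed.

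Gene identifiers were matched without version to GENCODE M21 (GRCm38, the same build), which held 23004 of the 23084, and transcript lengths came from it. Where a symbol had several rows (28 symbols), the one with the most signal was taken. Steps in the lowest values were matched within 2e-06 on values held by at least 5 rows, assuming that each row has reads in 2 or more libraries. Promoter windows came from RefSeq. The step, motif, stretch and percentile scripts were tested on simulated data. Python 3.11.15, pandas 2.3.3 and numpy 2.4.6 were used. The members and lists were chosen with earlier results of these data known. Named genes were the 10 members, the highest and lowest gene of each list, and paralogs that share sequence. Alternatives were other transcript lengths, group summaries, minimum signals, motif and stretch lengths. Hsf1, Hsf2, Dnaja1, Stip1, Ahsa1, Hsp90b1, Dnajb9, Trap1, Hspb1 and Cryab were added after their values were seen.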

Additional observations from a re-analysis of the deposited data

How the results depend on the processing

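No paired analysis was possible because the signal analysed is a mean over 8 libraries. For the same reason the fits planned with edgeR, DESeq2, another filter on counts or a replicate left out were not run.

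With transcript lengths set in other ways, the constitutive group stayed highest and the ER group second. The inducible group stayed lowest, except with no length scaling, by sum and by highest member, where the mitochondrial group was lowest. With no length scaling the medians were 1252 for the inducible, 15882 for the constitutive, 1128 for the mitochondrial and 8132 for the ER group. With coding length they were 891, 7312, 1435 and 4139 in the same order of groups, and with the shortest annotated transcript, often a fragment, 666, 45249, 1961 and 17991. With the longest transcript the mitochondrial median was 647 and the other 3 were unchanged. As a sum of members the values were 1862, 18308 and 1441 for the inducible, constitutive and mitochondrial groups, and as the highest member 836, 10486 and 750. Counting Hspa1a and Hspa1b as 1 gene moved the inducible median to 473. The members' median percentile was 84.3, 90.2 over all rows and 78.0 with a minimum mean signal of 100. Heat shock elements of 3 units were in 3 members in place of 5. Of single members, coding length raised all 10, by 1.16 to 2.94 times, the longest transcript lowered 4, at most to 0.659 times for Hsph1 (123), and the shortest raised 7, by up to 12.4 times, while the 4 highest kept their order under every length tried. The stretch length of 100 bases was chosen after seeing the data.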
